A study of Mus musculus with 11 samples.

Results

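Macrophages carry surface molecules that raise or restrain the T cells and phagocytes they touch, and 10 genes for such molecules were followed in sorted tumor and spleen macrophages of mice. They were chosen by gene name: Cd80, Cd86, Cd274, Cd40, Icosl, Havcr2, Lgals9, Sirpa, Pilra and Lilrb4a. All 10 were found in both gene tables, among 35118 genes in the table of the genotype comparison and 35597 in the table of the tissue comparison. All 10 passed the filter on low reads in both.

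T cells need a second signal beside the antigen, and the B7 ligands CD80 and CD86 give it through CD28 or withdraw it through CTLA-4. PD-L1, the product of Cd274, binds PD-1 on T cells and restrains them, and its gene is a well-known target of interferon-gamma. ICOSL, from Icosl, binds ICOS. CD40 receives CD40 ligand from helper T cells and, through TRAF adaptors and NF-kappaB, raises the antigen-presenting function of macrophages, dendritic cells and B cells. TIM-3, from Havcr2, is an inhibitory receptor on exhausted T cells and on myeloid cells, and galectin-9, from Lgals9, is one of its reported ligands. SIRP-alpha (Sirpa), PILR-alpha (Pilra) and the LILRB4 orthologue gp49B (Lilrb4a) are receptors with cytoplasmic ITIM motifs that recruit the phosphatases SHP-1 and SHP-2. SIRP-alpha binds CD47, the signal that protects a cell from being eaten.

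The samples were 11 RNA-seq libraries of macrophages sorted from C57BL/6 mice, 6 to 8 weeks old, that carried subcutaneous tumors of 500000 injected LLC cells, a mouse lung carcinoma line, for 14 days. KO_TAM denotes tumor macrophages of LysMCre;Sin1 fl/fl mice (4 libraries), WT_TAM those of Sin1 fl/fl mice (4 libraries), and WT_SP splenic macrophages of Sin1 fl/fl mice (3 libraries). Every group therefore carried the floxed Sin1 allele and a tumor. LysMCre expresses Cre from the Lyz2 gene, which is active in macrophages, monocytes and neutrophils, so that Sin1 loss is neither limited to tumor macrophages nor necessarily complete in them. Sin1, encoded by Mapkap1, belongs to mTOR complex 2, which phosphorylates and activates Akt. The gate for tumor macrophages took CD45+ cells that carried F4/80 and CD11b and lacked Ly6C and Ly6G. The splenic gate took F4/80+ cells with low CD11b among CD45+ cells without Ly6C, Ly6G or TCRβ, so the sort itself differed between tumor and spleen. Whether each library came from its own mouse is not in the labels, and p-values then measure the spread between libraries, which may be technical.

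Levels are given in CPM, reads relative to a library's total, scaled by the authors' own factor for that library and table. Library totals lay between 7639550 reads (WT_TAM replicate 4) and 13118534 reads (KO_TAM replicate 1). A floor of 3 reads corresponded to 0.211 to 0.492 CPM, below the level of each of the 10 genes in each library. Intervals and floors of this kind cover counting error only. Mapkap1 had 44.0, 54.1, 43.3 and 45.9 CPM in KO_TAM, against 71.1, 66.4, 59.7 and 30.7 CPM in WT_TAM, so the library labelled WT_TAM replicate 4 lay below all 4 KO_TAM libraries in the targeted gene. The Mapkap1 difference was a log2 fold change of -0.22 ± 0.26 (SE, adjusted p = 0.658 in limma), and without WT_TAM replicate 4 it was -0.49 (adjusted p = 0.162 in limma). WT_TAM replicate 4 also stood apart in all genes, with Pearson correlations of 0.877 to 0.888 to the other WT_TAM libraries, and the log2 fold changes of the 10 genes are therefore given with and without it. KO_TAM replicate 2 correlated at 0.922 to 0.933 with the other KO_TAM libraries, which correlated at 0.962 to 0.972 among themselves. All 14 macrophage markers were detected. Their summed level was 15535 (replicate 2) to 28600 CPM in KO_TAM, against 37570 to 63065 CPM in WT_TAM. The next lowest KO_TAM library had 26801 CPM. However, 5 of the 14 had the higher mean in KO_TAM. Among these 5 were genes of sorting markers, Adgre1, which encodes F4/80 (850 CPM in KO_TAM, 455 CPM in WT_TAM), and Ptprc, which encodes CD45 (1070 CPM in KO_TAM, 552 CPM in WT_TAM). The most abundant of the 14 was Lyz2, the gene that holds the Cre insertion, with means of 10333 CPM in KO_TAM and 27423 CPM in WT_TAM. In WT_SP the macrophage sum was 7509 to 7847 CPM, and the sum of 10 B cell markers, 7631 to 8857 CPM, was about as high. In the tissue comparison, 12 of the 14 macrophage markers had the higher mean in WT_TAM. Lyz2 averaged 30708 CPM in WT_TAM and 1796 CPM in WT_SP there. Markers of splenic red pulp macrophages ran the other way, at 3964 to 4429 CPM in WT_SP and 287 to 711 CPM in WT_TAM. Of these 8 genes, 0 had the higher mean in WT_TAM.

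In the mouse genome (GRCm38, GENCODE M21 annotation), Cd80 spans chr16:38455561-38496335 on the plus strand and Cd86 chr16:36603869-36666081 on the minus strand, so that both CD28 ligands lie on 1 chromosome. Cd274 spans chr19:29367455-29388095, Cd40 chr2:165055627-165072948 and Icosl chr10:78069302-78083913, all on the plus strand. Havcr2 spans chr11:46454935-46481255 on the plus strand and Lgals9 chr11:78962974-78984946 on the minus strand. Sirpa spans chr2:129592835-129632228 on the plus strand, Pilra chr5:137821952-137836281 on the minus strand and Lilrb4a chr10:51480612-51496613 on the plus strand. An antisense gene overlaps Cd274, and the strand setting of the counting was not given, so reads of the pair cannot be told apart.

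The promoters of the members that separated tumor from spleen most widely, and for which RefSeq (GRCm38.p6) gave a window, are shown to place the results in sequence. Each window runs from 250 bases before to 50 bases after the RefSeq start, and 6 of the 10 genes had one. Cd80, Cd274 and Havcr2 were higher in WT_TAM than in WT_SP, and Icosl was lower. Capitals mark matches, on either strand, to 5 short patterns: GAS, TTCNNNGAA; the ISRE core, GAAANNGAA; an NF-kappaB pattern, GGANNNNCC; AP-1, TGANTCA; and the PU.1 core, GAGGAA.
Cd80, chr16:38458683-38458982, plus strand: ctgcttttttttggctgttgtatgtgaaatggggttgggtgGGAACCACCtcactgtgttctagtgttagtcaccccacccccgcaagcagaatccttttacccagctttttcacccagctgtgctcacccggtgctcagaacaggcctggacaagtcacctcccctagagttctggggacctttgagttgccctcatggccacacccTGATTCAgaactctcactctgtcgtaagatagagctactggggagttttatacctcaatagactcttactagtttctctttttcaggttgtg
Cd274, chr19:29367188-29367487, plus strand: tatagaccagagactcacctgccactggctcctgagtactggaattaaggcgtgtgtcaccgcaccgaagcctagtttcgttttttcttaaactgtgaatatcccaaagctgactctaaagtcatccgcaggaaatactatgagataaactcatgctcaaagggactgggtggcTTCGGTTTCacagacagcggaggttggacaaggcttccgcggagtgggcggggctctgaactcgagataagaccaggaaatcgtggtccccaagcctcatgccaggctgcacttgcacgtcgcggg
Havcr2, chr11:46454681-46454980, plus strand: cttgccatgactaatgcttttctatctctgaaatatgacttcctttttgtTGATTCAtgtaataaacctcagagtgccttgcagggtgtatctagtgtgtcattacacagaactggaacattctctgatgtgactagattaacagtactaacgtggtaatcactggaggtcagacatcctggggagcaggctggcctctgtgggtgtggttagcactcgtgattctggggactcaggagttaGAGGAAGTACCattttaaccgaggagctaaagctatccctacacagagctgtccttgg
Icosl, chr10:78069118-78069417, plus strand: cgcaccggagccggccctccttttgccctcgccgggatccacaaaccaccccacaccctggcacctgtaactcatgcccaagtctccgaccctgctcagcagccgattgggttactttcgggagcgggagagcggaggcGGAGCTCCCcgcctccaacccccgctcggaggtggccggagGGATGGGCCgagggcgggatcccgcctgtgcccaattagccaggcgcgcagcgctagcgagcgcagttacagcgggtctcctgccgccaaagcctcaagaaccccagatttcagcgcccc

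The Cd80 window held an NF-kappaB match at bases 42 to 50 and an AP-1 match at bases 209 to 215, counted from the window's 5′ end. This window begins at base 38458683, inside the annotated Cd80 gene, whose GENCODE start is base 38455561. Both Cd80 matches thus lie downstream of that start, while the windows of Cd274, Havcr2 and Icosl span the annotated starts of their genes. In Cd274, the match was an ISRE core at bases 175 to 183, on the minus strand. Havcr2 held AP-1 at bases 51 to 57, the PU.1 core at bases 243 to 248 and, overlapping it, an NF-kappaB match at bases 245 to 253. Icosl held NF-kappaB matches at bases 140 to 148 and 181 to 189. Among 32851 RefSeq promoter windows of the same length, 48.44% held the NF-kappaB pattern, 28.28% the PU.1 core, 8.56% the ISRE core, 8.3% GAS and 7.81% AP-1. Such a match is a description of letters and says nothing about binding.

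The first comparison asks what Sin1 loss changes in tumor macrophages. There, 8 of the 10 genes had a higher mean level in KO_TAM than in WT_TAM, and none of the differences passed the test. The widest were Cd274, Cd80 and Lilrb4a, at 2.54, 2.42 and 1.71 times the WT_TAM mean. Cd80, Cd86 and Lilrb4a were higher in all 4 KO_TAM libraries than in any of the 4 WT_TAM libraries. That is 3 of 10 genes, where 6.39% of the 12874 genes tested lay apart in this direction. None of the 10 lay apart the other way, where 8.73% of all genes did, and 50.5% of all genes had the higher mean in KO_TAM. With limma on log2(CPM + 0.5), 0 of the 10 genes and 0 of all genes tested (0%) reached an adjusted p under 0.05. At an unadjusted p under 0.05 stood 3 of the 10 genes (Cd80, Cd274 and Lilrb4a) and 2367 of all genes (18.4%), and limma voom also called 0 genes. The median log2 fold change was 0.40 over the 10 genes and 0.01 over all genes tested. Without WT_TAM replicate 4 it was 0.17 over the 10 genes, and without both WT_TAM replicate 4 and KO_TAM replicate 2 it was 0.13. In both of these reduced sets, Cd80, Cd86 and Lilrb4a again lay apart, where 8.27% and 9.81% of all genes did so in this direction. In sorted bulk samples, fewer cells of a type and less RNA per cell cannot be told apart.

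**Figure D1:**
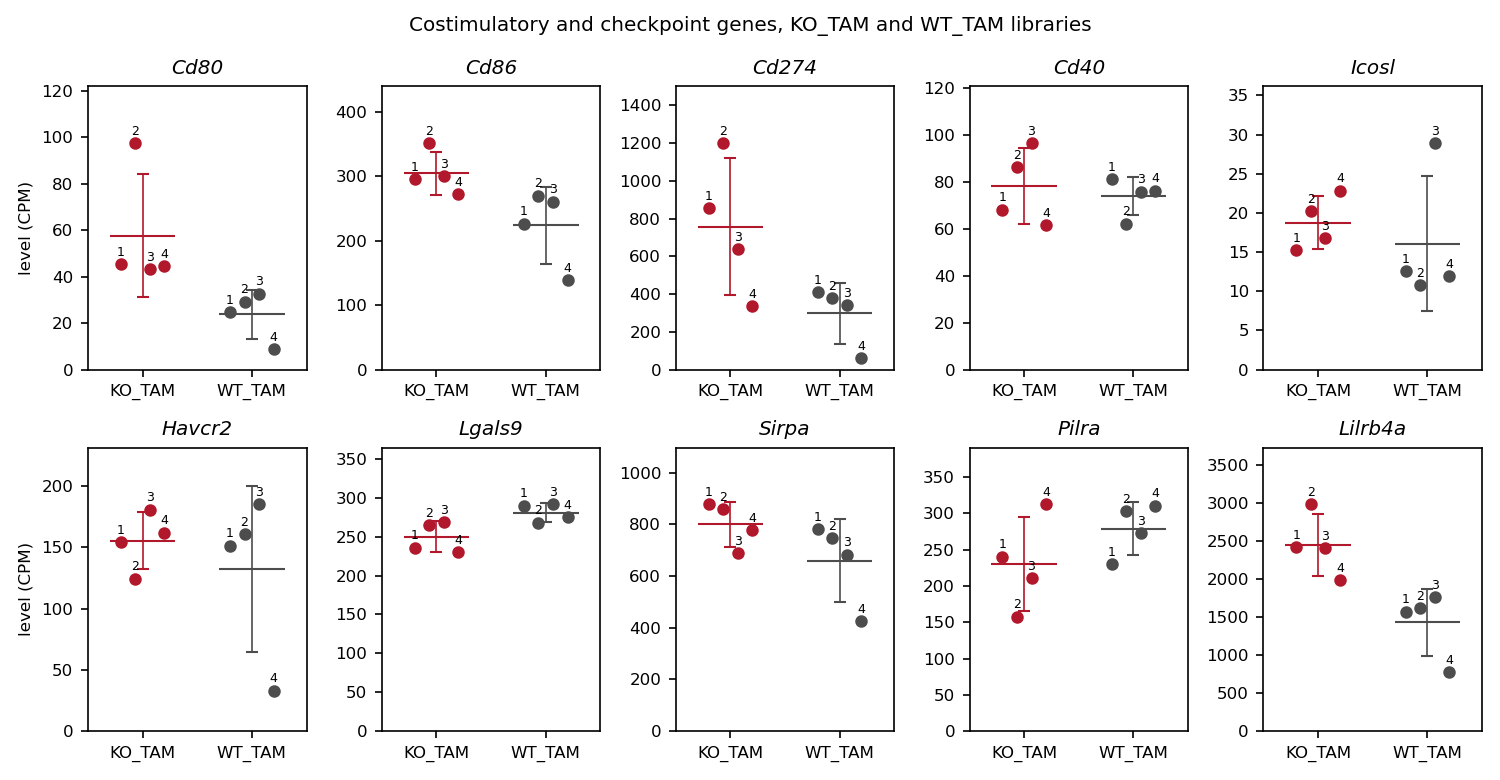
Levels of the 10 genes in CPM (y axes, each from 0) in KO_TAM and WT_TAM libraries (x axes). Points are single libraries numbered by replicate, and bars are the mean and SD (n = 4 each); the KO_TAM points of Cd80, Cd86 and Lilrb4a all lie above the WT_TAM points, and WT_TAM replicate 4 is the lowest library for 6 of the 10 genes across its group.

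Cd80, the B7 ligand with the higher affinity for CTLA-4, had 45.5, 97.6, 43.3 and 44.4 CPM in KO_TAM, against 24.8, 29.2, 32.7 and 8.83 CPM in WT_TAM. The groups did not overlap, KO_TAM replicate 2 was far above the other KO_TAM libraries, and WT_TAM replicate 4 was the lowest of its group. The means were 57.7 ± 26.6 CPM in KO_TAM and 23.9 ± 10.5 CPM in WT_TAM (n = 4 each, SD), a log2 fold change of 1.31 ± 0.41 (SE) and an adjusted p of 0.171 in limma. Without WT_TAM replicate 4 the log2 fold change of Cd80 was 0.90 (adjusted p = 0.174 in limma), and without that library and KO_TAM replicate 2 it was 0.62 (adjusted p = 0.0657 in limma), with KO_TAM at 44.4 ± 1.12 CPM (SD, n = 3) and WT_TAM at 28.9 ± 3.95 CPM (SD, n = 3).

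Cd86, the other B7 ligand of CD28, had 296, 352, 300.0 and 272.7 CPM in KO_TAM, against 226.5, 270.3, 260.8 and 139.3 CPM in WT_TAM. All 4 KO_TAM libraries were above all WT_TAM libraries, but KO_TAM replicate 4 and WT_TAM replicate 2 nearly met. The log2 fold change of Cd86 was 0.48 ± 0.23 (SE, adjusted p = 0.290 in limma), and 0.27 (adjusted p = 0.304 in limma) without WT_TAM replicate 4. Per unit of gene length, Cd86 was 2.21 to 4.24 times Cd80 in KO_TAM and 4.88 to 9.64 times in WT_TAM. The library ratios of these paired CD28 ligands therefore did not overlap between the genotypes, a description that rests on the same values as the Cd80 and Cd86 levels.

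Cd274 had 855.1, 1200.5, 636.6 and 336.6 CPM in KO_TAM, against 411.2, 379.2, 342.4 and 60.8 CPM in WT_TAM. KO_TAM replicate 4 lay within the range of WT_TAM, so the groups overlapped, while the 3 other KO_TAM libraries were above every WT_TAM library. Its log2 fold change was 1.52 ± 0.60 (SE, adjusted p = 0.234 in limma), 0.86 (adjusted p = 0.246 in limma) without WT_TAM replicate 4, and 0.59 (adjusted p = 0.387 in limma) without KO_TAM replicate 2 as well. In WT_TAM replicate 4 Cd274 was 0.160 times the median of the other WT_TAM libraries. Pdcd1lg2, which encodes PD-L2, the other ligand of PD-1, averaged 98.1 ± 28.4 CPM in KO_TAM and 59.2 ± 4.93 CPM in WT_TAM (n = 4 each, SD; adjusted p = 0.206 in limma). Per unit of length, Cd274 was 2.58 to 4.35 times Pdcd1lg2 in KO_TAM and 0.425 to 2.87 times in WT_TAM, where 0.425 was the value of replicate 4.

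Icosl had 15.2, 20.3, 16.8 and 22.8 CPM in KO_TAM, against 12.6, 10.8, 28.9 and 11.9 CPM in WT_TAM. WT_TAM replicate 3 was above all other libraries, and the 3 other WT_TAM libraries were below all of KO_TAM. The log2 fold change of Icosl was 0.32 ± 0.31 (SE, adjusted p = 0.576 in limma), and 0.22 without WT_TAM replicate 4. Cd40 had 68.1, 86.3, 96.6 and 61.5 CPM in KO_TAM, against 81.2, 62.2, 75.8 and 76.3 CPM in WT_TAM. The Cd40 groups overlapped throughout, at a log2 fold change of 0.06 ± 0.19 (SE, adjusted p = 0.872 in limma), or 0.08 without WT_TAM replicate 4, and its sign turned when single libraries were left out. In WT_TAM replicate 4, which was low in most of these genes, Cd40 was among the middle values.

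Havcr2 had 154.2, 124.5, 180.8 and 162.1 CPM in KO_TAM, against 151.5, 160.6, 185.2 and 33.0 CPM in WT_TAM. Apart from WT_TAM replicate 4, at 0.206 times the median of the other WT_TAM libraries, the groups overlapped, with KO_TAM replicate 2 below the 3 other WT_TAM libraries. Its log2 fold change was 0.48 ± 0.47 (SE, adjusted p = 0.586 in limma) with all libraries and -0.10 (adjusted p = 0.749 in limma) without WT_TAM replicate 4, so that its sign depended on that library. Lgals9 had 235.9, 264.4, 268.8 and 229.6 CPM in KO_TAM, against 289.9, 267.8, 291.6 and 274.8 CPM in WT_TAM. Only KO_TAM replicate 3 reached into the WT_TAM range for Lgals9, at a log2 fold change of -0.17 ± 0.15 (SE, adjusted p = 0.546 in limma). Unlike Havcr2, Lgals9 in WT_TAM replicate 4 was close to its group, and the log2 fold change without that library was -0.18 (adjusted p = 0.415 in limma).

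Of the ITIM receptors, Lilrb4a had 2416.4, 2982.5, 2405.9 and 1981.4 CPM in KO_TAM, against 1571.5, 1612.5, 1760.2 and 771.7 CPM in WT_TAM. Each KO_TAM library was above each WT_TAM library. The means were 2447 ± 411 CPM in KO_TAM and 1429 ± 446 CPM in WT_TAM (n = 4 each, SD), a log2 fold change of 0.83 ± 0.27 (SE, adjusted p = 0.181 in limma). Without WT_TAM replicate 4 the log2 fold change of Lilrb4a was 0.56 (adjusted p = 0.164 in limma), and without KO_TAM replicate 2 as well it was 0.46 (adjusted p = 0.0926 in limma). Lilrb4a has a near-identical relative. On its own strand Lilrb4a overlaps annotated genes, Lilr4b and another entry named Lilrb4a, and on the other strand it overlaps Gm40645. Its reads may therefore be shared, and its level is uncertain to that extent.

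Sirpa had 878.1, 858.8, 688.2 and 778.2 CPM in KO_TAM, against 782.0, 748.1, 682.5 and 425.3 CPM in WT_TAM. Its groups overlapped, at a log2 fold change of 0.31 ± 0.22 (SE, adjusted p = 0.443 in limma), and 0.11 (adjusted p = 0.669 in limma) without WT_TAM replicate 4. Pilra had 240.6, 157.8, 211.3 and 312.7 CPM in KO_TAM, against 229.8, 302.9, 272.7 and 310.6 CPM in WT_TAM. These also overlapped, with KO_TAM replicate 2 the lowest and KO_TAM replicate 4 the highest of the 8 libraries, at a log2 fold change of -0.31 ± 0.23 (SE, adjusted p = 0.463 in limma). Leaving out WT_TAM replicate 4 gave -0.25 for Pilra. Both genes have activating relatives of similar sequence (Sirpb1a to Sirpb1c, and Pilrb1 and Pilrb2), and Pilra overlaps Zcwpw1 on the other strand, so their reads may be shared too.

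Some marker sums of other cells lay apart between the genotypes, and others overlapped. The neutrophil sum was 278 to 954 CPM in KO_TAM, against 113 to 206 CPM in WT_TAM. Retnlg (293 CPM in KO_TAM, 73.9 CPM in WT_TAM), Mmp8 (147 and 33.3 CPM) and Csf3r (74.3 and 37.7 CPM) carried this sum. Of the 12 neutrophil genes, 10 had the higher mean in KO_TAM, and Ltf and Mpo had the lower. S100a8 was nearly equal (14.0 and 12.2 CPM), and 3 of the 12 stayed under 1 CPM in every library. Means were also low in both groups for S100a9 (1.56 and 0.690 CPM), Cxcr2 (0.904 and 0.684 CPM) and Ngp (0.732 and 0.145 CPM). The same held for Ltf (0.390 and 0.960 CPM) and Mpo (0.314 and 0.370 CPM). The sum of eosinophil, basophil and mast cell markers was 267 to 1069 CPM in KO_TAM, against 23.1 to 192 CPM in WT_TAM. Only 5 of those 10 genes had the higher mean in KO_TAM, and Siglecf (219 CPM in KO_TAM, 46.8 CPM in WT_TAM), Ccr3 (213 CPM in KO_TAM, 53.7 CPM in WT_TAM) and Il5ra (59.7 CPM in KO_TAM, 12.3 CPM in WT_TAM) carried the sum, while Epx, Mcpt4, Cpa3, Fcer1a and Ms4a2 had the lower mean. None of these marker genes was at 0 in every library. KO_TAM replicate 2 was the highest library in the neutrophil sum and in the eosinophil, basophil and mast cell sum. The next highest KO_TAM libraries had 478 and 422 CPM. The fibroblast sum was 30.8 to 241 CPM in KO_TAM, against 396 to 874 CPM in WT_TAM, whereas dendritic cell (110 to 191 CPM in KO_TAM, 135 to 235 CPM in WT_TAM), B cell (64.1 to 245 CPM in KO_TAM, 17.0 to 115 CPM in WT_TAM) and monocyte sums (2005 to 4694 CPM in KO_TAM, 1268 to 2546 CPM in WT_TAM) overlapped. Their part in the levels of the 10 genes was not tested.

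The second comparison sets tumor macrophages beside peripheral ones of control mice, and most of the 10 genes separated there. Lilrb4a, Cd80, Havcr2, Cd274, Pilra and Sirpa rose in WT_TAM relative to WT_SP, Icosl and Cd40 fell, and Cd86 and Lgals9 did not pass the test. That made 6 genes called higher and 2 called lower of 10, where 23.1% of the 14239 genes tested were called higher and 23.6% lower at a limma adjusted p under 0.05. Libraries of the 2 groups lay apart for the 8 called genes, as for 56.1% of all genes. Calls were thus common over all genes in this comparison. The median log2 fold change was 1.36 over the 10 genes and -0.07 over all genes tested. Without WT_TAM replicate 4, Cd86 was called as well, which made 7 genes higher (32.2% of all genes) and 2 lower (33.5%), and all 10 genes lay apart (70.7% of all genes). WT_TAM libraries enter both comparisons and carry slightly different CPM values in each, because the authors' factor differs between the tables.

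**Figure D2:**
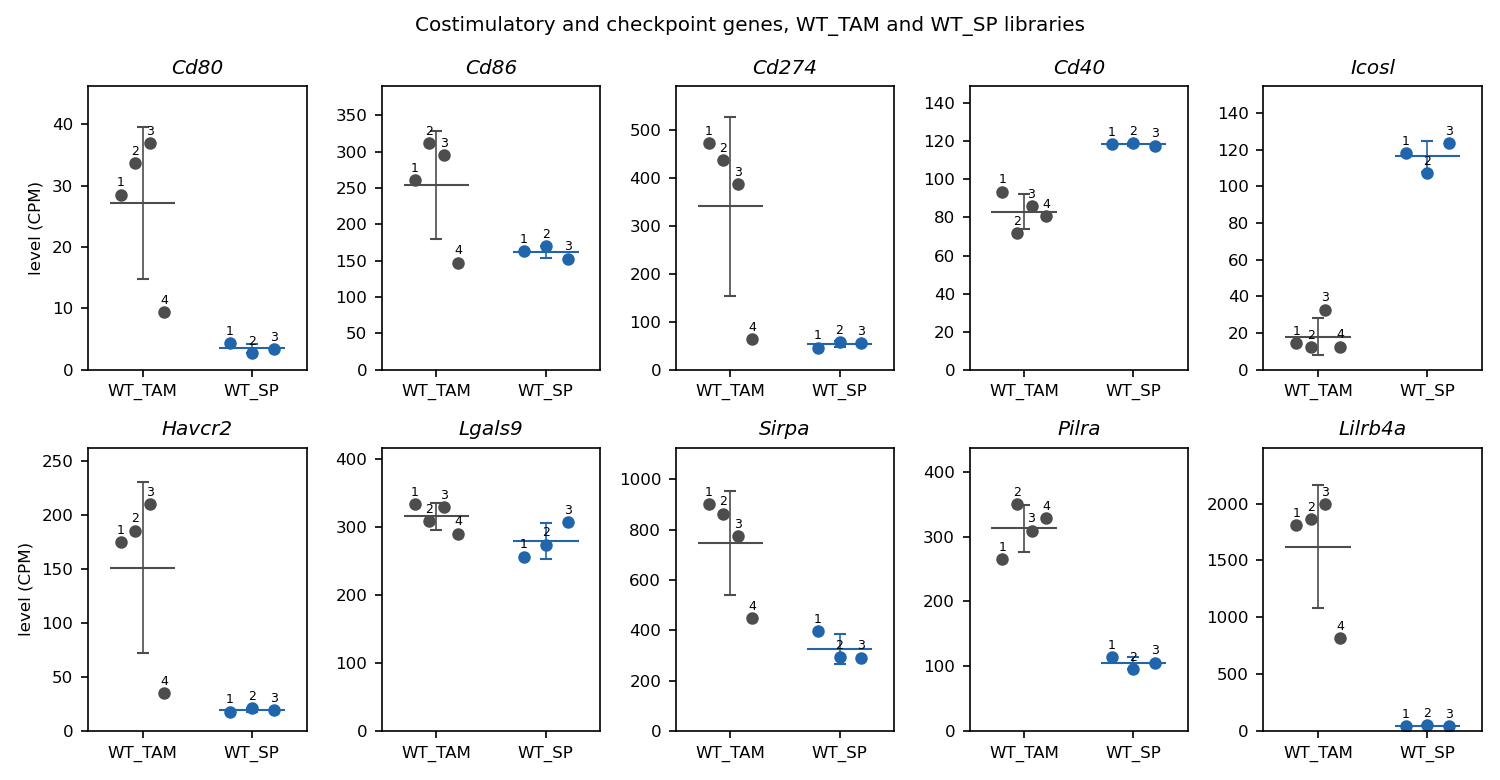
Levels of the 10 genes in CPM (y axes, each from 0) in WT_TAM and WT_SP libraries (x axes). Points are single libraries numbered by replicate, and bars are the mean and SD (n = 4 and n = 3); WT_TAM replicate 4 lies near the WT_SP libraries for Cd274, Havcr2 and Cd86, and Icosl and Cd40 are higher in all WT_SP libraries.

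Lilrb4a had 1810.6, 1861.9, 1993.5 and 816.3 CPM in WT_TAM, against 40.7, 49.0 and 45.8 CPM in WT_SP. Even the lowest WT_TAM library was far above the highest of WT_SP. The means were 1621 ± 542 CPM in WT_TAM (SD, n = 4) and 45.1 ± 4.21 CPM in WT_SP (SD, n = 3), a ratio of 35.9 and a log2 fold change of 5.07 ± 0.31 (SE, adjusted p = 4.33e-06 in limma). It was 5.37 without WT_TAM replicate 4 (adjusted p = 5.29e-11 in limma).

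Cd80 had 28.5, 33.7, 37.0 and 9.34 CPM in WT_TAM, against 4.30, 2.70 and 3.37 CPM in WT_SP, and Havcr2 had 174.5, 185.5, 209.7 and 34.9 CPM in WT_TAM, against 18.0, 21.4 and 19.1 CPM in WT_SP. In both genes WT_TAM replicate 4 was well below the 3 other WT_TAM libraries but above all of WT_SP. The log2 fold changes were 2.66 ± 0.45 (SE) for Cd80 (adjusted p = 0.00152 in limma) and 2.65 ± 0.57 (SE) for Havcr2 (adjusted p = 0.00511 in limma). Without WT_TAM replicate 4 they were 3.10 for Cd80 (adjusted p = 2.85e-07 in limma) and 3.25 for Havcr2 (adjusted p = 2.93e-09 in limma).

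Cd274 had 473.8, 437.9, 387.7 and 64.3 CPM in WT_TAM, against 46.2, 57.8 and 54.8 CPM in WT_SP. The lowest WT_TAM library, replicate 4, was only just above the highest WT_SP library, and the rest were far above. Its log2 fold change was 2.34 ± 0.64 (SE, adjusted p = 0.0162 in limma) and, without WT_TAM replicate 4, 3.02 (adjusted p = 4.73e-09 in limma). Leaving out WT_SP replicate 1 or WT_SP replicate 3 ended the call, at log2 fold changes of 2.24 (adjusted p = 0.0601 in limma) and 2.36 (adjusted p = 0.0503 in limma). PD-L2 transcripts (Pdcd1lg2) averaged 66.5 ± 5.65 CPM in WT_TAM (SD, n = 4) and 9.46 ± 0.641 CPM in WT_SP (SD, n = 3), a log2 fold change of 2.75 (adjusted p = 3.4e-06 in limma), and Pdcd1lg2 did not share the drop of Cd274 in WT_TAM replicate 4.

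Pilra had 264.8, 349.8, 308.9 and 328.5 CPM in WT_TAM, against 114.5, 95.6 and 105.6 CPM in WT_SP, and all WT_TAM libraries, replicate 4 included, were high. Its log2 fold change was 1.56 ± 0.17 (SE, adjusted p = 0.000107 in limma), and 1.54 without WT_TAM replicate 4 (adjusted p = 8.72e-07 in limma). Sirpa had 901.0, 863.9, 773.0 and 449.9 CPM in WT_TAM, against 396.7, 292.4 and 292.0 CPM in WT_SP, where WT_TAM replicate 4 came close to WT_SP replicate 1. The log2 fold change of Sirpa was 1.16 ± 0.27 (SE, adjusted p = 0.00785 in limma), and 1.38 without WT_TAM replicate 4 (adjusted p = 3.93e-06 in limma). Scaling by the library total alone lowered the median of all genes to -0.52 and Sirpa to 0.68 (adjusted p = 0.0845 in limma), which ended its call. The distance of Sirpa from that median was 1.20, against 1.22 in the main scaling. Scaling shifts all genes nearly alike, so this distance could hardly change and is no check on the call.

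Cd86 had 261.0, 312.1, 295.3 and 147.4 CPM in WT_TAM, against 163.5, 169.8 and 152.6 CPM in WT_SP. WT_TAM replicate 4 lay below all 3 WT_SP libraries, and the rest of WT_TAM above them. With all libraries the log2 fold change of Cd86 was 0.59 ± 0.27 (SE, adjusted p = 0.102 in limma), and without WT_TAM replicate 4 it was 0.83 (adjusted p = 2.10e-05 in limma). Lgals9 had 334.0, 309.2, 330.2 and 290.7 CPM in WT_TAM, against 257.1, 274.6 and 308.0 CPM in WT_SP. Its groups overlapped, at a log2 fold change of 0.18 ± 0.16 (SE, adjusted p = 0.395 in limma), and 0.22 without WT_TAM replicate 4 (adjusted p = 0.0581 in limma). Under scaling by the library total alone it was -0.30 (adjusted p = 0.206 in limma), where the median of all genes was -0.52, so its sign depended on the scaling. Lgals9 lay 0.23 above that median, against 0.24 in the main scaling, a distance that scaling can hardly change.

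Icosl and Cd40 ran the other way. Icosl had 14.5, 12.4, 32.8 and 12.6 CPM in WT_TAM, against 118.2, 107.1 and 123.8 CPM in WT_SP, and even its highest WT_TAM library, replicate 3, was far below WT_SP. The log2 fold change of Icosl was -2.77 ± 0.33 (SE, adjusted p = 0.000197 in limma), or -2.65 without WT_TAM replicate 4 (adjusted p = 0.000511 in limma), and the WT_SP mean was 6.43 times the WT_TAM mean. Cd40 had 93.6, 71.8, 85.9 and 80.7 CPM in WT_TAM, against 118.6, 119.2 and 117.8 CPM in WT_SP, a tight group above every WT_TAM library. Its log2 fold change was -0.52 ± 0.16 (SE, adjusted p = 0.0265 in limma), and -0.51 without WT_TAM replicate 4 (adjusted p = 0.00178 in limma). The Cd40 call ended when WT_TAM replicate 2 was left out (-0.45, adjusted p = 0.0666 in limma), when WT_TAM replicate 3 was (-0.54, adjusted p = 0.0507 in limma) and when any 1 WT_SP library was (adjusted p in limma from 0.0864 to 0.0947). Both genes are also known B cell genes. The 10 B cell markers summed to 18.0 to 133 CPM in WT_TAM and 7631 to 8857 CPM in WT_SP, with Cd79a at 8.59 CPM in WT_TAM and 2055 CPM in WT_SP on average. Dendritic cell markers summed to 143 to 270 CPM in WT_TAM and 746 to 808 CPM in WT_SP, T cell markers to 110 to 164 CPM in WT_TAM and 1654 to 1744 CPM in WT_SP, and neutrophil markers to 119 to 238 CPM in WT_TAM and 1102 to 3009 CPM in WT_SP. The part of these cells in the Icosl and Cd40 levels, or in the lower levels of the other genes in WT_SP, was not tested.

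**Figure D3:**
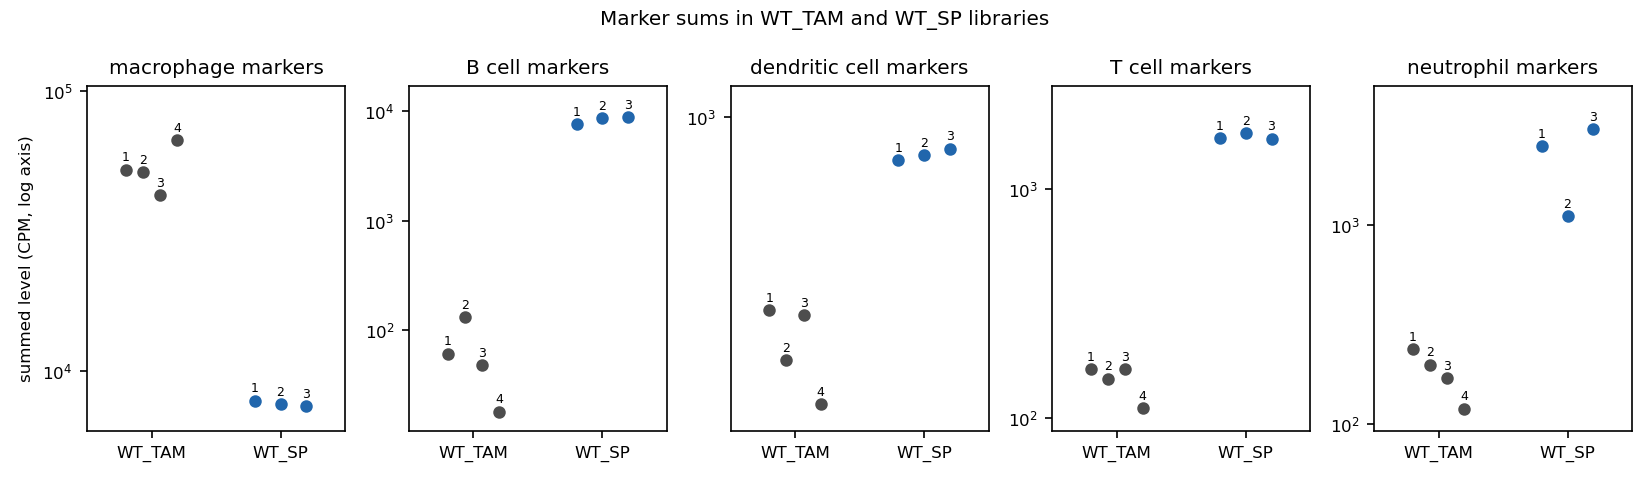
Summed CPM of marker genes (y axes, log scale) for macrophages, B cells, dendritic cells, T cells and neutrophils in WT_TAM and WT_SP libraries (x axes). Points are single libraries numbered by replicate. Macrophage sums are higher in all WT_TAM libraries, and the B cell, dendritic cell, T cell and neutrophil sums are higher in all WT_SP libraries. Red pulp macrophage markers, not shown, also summed higher in all WT_SP libraries.

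**Figure D4:**
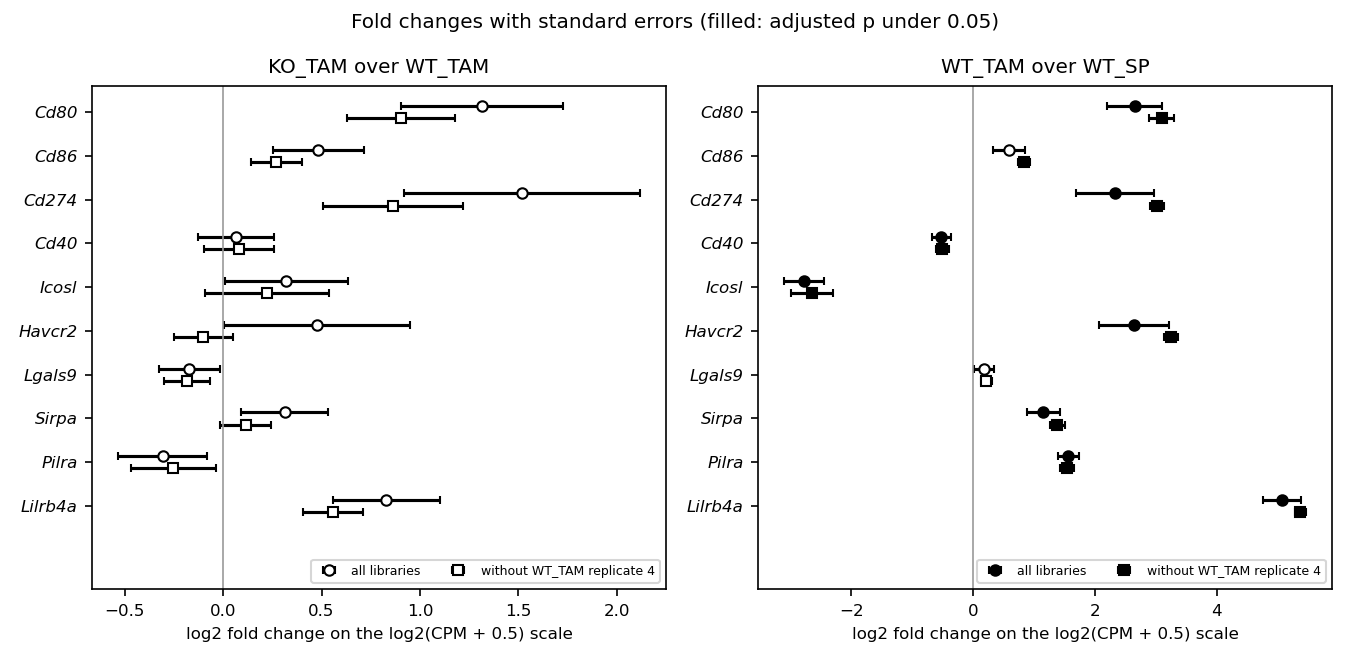
Log2 fold changes on the log2(CPM + 0.5) scale (x axes) of the 10 genes (y axes) for KO_TAM over WT_TAM on the left and WT_TAM over WT_SP on the right, with standard errors. Circles use all libraries, squares leave out WT_TAM replicate 4, and filled symbols mark an adjusted p under 0.05; on the left no symbol is filled, and on the right Cd86 is filled only as a square.

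Within a library, genes can be ordered only per unit of length, in CPM per kb. In KO_TAM, Lilrb4a led with 1895 ± 318 CPM per kb (SD, n = 4), followed by Sirpa at 217, Cd274 at 209, Lgals9 at 175, Pilra at 167 and Cd86 at 119 CPM per kb. Havcr2 (59.0 CPM per kb), Cd40 (47.0), Cd80 (36.9) and Icosl (9.44) came after them in KO_TAM. Neighbours in this order were apart in all libraries only between Lilrb4a and Sirpa, Cd86 and Havcr2, and Cd80 and Icosl, and all other neighbours overlapped.

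WT_TAM, on the scale of the same table, also had Lilrb4a first, at 1107 ± 345 CPM per kb (SD, n = 4), and then Pilra at 203, Lgals9 at 197, Sirpa at 179, Cd86 at 87.6, Cd274 at 82.3, Havcr2 at 50.3, Cd40 at 44.5, Cd80 at 15.3 and Icosl at 8.08 CPM per kb. Cd274 thus stood at rank 3 in KO_TAM and rank 6 in WT_TAM, though in each group its libraries overlapped those of its neighbours. In WT_TAM the neighbours apart were Lilrb4a and Pilra, Sirpa and Cd86, and Cd40 and Cd80.

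In WT_SP the order began with Lgals9, at 196 ± 18.1 CPM per kb (SD, n = 3), then Sirpa at 88.8, Pilra at 76.4, Cd40 at 71.4, Cd86 at 63.3, Icosl at 58.5, Lilrb4a at 35.0, Cd274 at 14.6, Havcr2 at 7.40 and Cd80 at 2.21 CPM per kb. Lilrb4a, first in tumor macrophages, was seventh there, and Icosl, last in tumor macrophages, was sixth. Sirpa and Pilra, Pilra and Cd40, and Cd86 and Icosl overlapped, and the other neighbours were apart. Cd86 was 4.88 to 9.64 times Cd80 in WT_TAM and 23.2 to 38.4 times in WT_SP per unit of length, and 7.0 to 19.5 times Icosl in WT_TAM and 0.958 to 1.23 times in WT_SP.

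**Figure D5:**
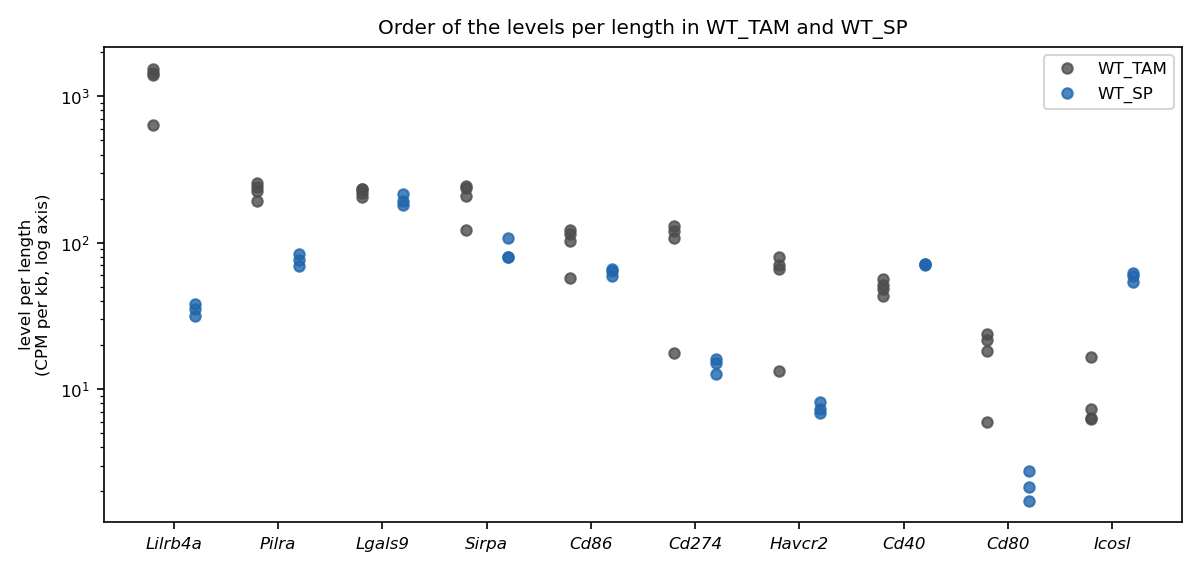
Levels per length in CPM per kb (y axis, log scale) of the 10 genes (x axis, in the order of the WT_TAM mean) in WT_TAM and WT_SP libraries. Points are single libraries; Lilrb4a is first in WT_TAM and seventh in WT_SP, while Lgals9 sits at about the same level in both.

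Around the 10 genes, 9 lists of related genes were read from the same fits (131 genes, of which 118 were tested between genotypes and 120 between tissues). Between KO_TAM and WT_TAM, 0 of the 118 were called in limma, with means higher for 76 and lower for 42, and leaving out WT_TAM replicate 4 also gave 0. Between WT_TAM and WT_SP, 46 rose and 34 fell of 120, against 54 and 41 of 119 without WT_TAM replicate 4. Over all genes, 46.7% were called in either direction between the tissues.

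Among other inhibitory receptors of macrophages, 5 of 17 tested genes were higher in all KO_TAM than in all WT_TAM libraries, where 6.39% of all genes were, and the median log2 fold change was 0.42, against 0.01 over all genes. Siglecg, an inhibitory lectin best known from B cells, averaged 217 ± 165 CPM in KO_TAM and 42.6 ± 30.1 CPM in WT_TAM (n = 4 each, SD; log2 fold change 2.57, adjusted p = 0.158 in limma, and 1.75 without WT_TAM replicate 4). Pecam1, an ITIM-bearing adhesion receptor, averaged 96.6 ± 26.6 CPM in KO_TAM and 40.6 ± 14.7 CPM in WT_TAM (log2 fold change 1.29, adjusted p = 0.127 in limma, and 0.97 without WT_TAM replicate 4). Of the activating counterparts of the paired receptors, 3 of 17 lay above in KO_TAM, with Lilra6 at a log2 fold change of 1.85 (adjusted p = 0.131 in limma) and Cd300lb at 0.86 (adjusted p = 0.201 in limma), or 1.43 and 0.61 without WT_TAM replicate 4. Among kinases, phosphatases and adaptors of ITIM signalling, Syk, which acts downstream of activating receptors, had a log2 fold change of 0.72 (adjusted p = 0.20 in limma), 0.54 without WT_TAM replicate 4, and lay above in all KO_TAM libraries. In the NF-kappaB list the means of 16 of 18 genes were higher in KO_TAM, but the groups lay apart for 1, and 50.5% of all genes had the higher mean there. Tnfaip3, an inhibitor of NF-kappaB, had a log2 fold change of 1.07 (adjusted p = 0.318 in limma), and Rel, one of its subunits, 1.04 (adjusted p = 0.227 in limma). Without WT_TAM replicate 4 these were 0.49 for Tnfaip3 and 0.62 for Rel. Among regulators of PD-L1, 3 of 17 lay above and 1 below, where 6.39% and 8.73% of all genes did, with Hif1a, the oxygen-sensing transcription factor, averaging 461 ± 110 CPM in KO_TAM and 265 ± 106 CPM in WT_TAM (n = 4 each, SD; adjusted p = 0.239 in limma) and Cmtm4 at a log2 fold change of -1.24 (adjusted p = 0.239 in limma), close to the floor of 3 reads. Hif1a had a log2 fold change of 0.90 with all libraries and of 0.50 without WT_TAM replicate 4, and that of Cmtm4 was -0.94 without it.

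In the remaining lists, Cd276, another B7 family ligand, averaged 13.4 CPM in KO_TAM and 22.0 CPM in WT_TAM (adjusted p = 0.259 in limma). Of the TNF superfamily ligands, Tnfsf14 had a log2 fold change of 0.80 (adjusted p = 0.278 in limma) and Tnfsf8 of -0.55 (adjusted p = 0.542 in limma). Cd200, a ligand that restrains myeloid cells, averaged 16.8 CPM in KO_TAM and 3.61 CPM in WT_TAM (adjusted p = 0.173 in limma). Its log2 fold change was 2.12 with all libraries and 1.54 when WT_TAM replicate 4 was left out. Lgals1, which encodes galectin-1, averaged 741 CPM in KO_TAM and 2019 CPM in WT_TAM (adjusted p = 0.286 in limma). Lgals1 lay below in all KO_TAM libraries, and its log2 fold change was -1.05 with and -0.47 without WT_TAM replicate 4. From the list of T and NK cell receptors, Cd40lg, which encodes the ligand of CD40, averaged 1.59 CPM in KO_TAM and 0.676 CPM in WT_TAM (adjusted p = 0.281 in limma). These Cd40lg levels are close to the floor of 3 reads. Tnfrsf4 averaged 8.36 CPM in KO_TAM and 15.1 CPM in WT_TAM (adjusted p = 0.232 in limma). Leaving out WT_TAM replicate 4 kept the sign of each of these, at -0.92 for Cd276, 0.63 for Tnfsf14, -0.80 for Tnfsf8, 0.59 for Cd40lg and -1.02 for Tnfrsf4.

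Between tissues, where 23.1% of all genes rose and 23.6% fell, 3 of 4 other B7 and butyrophilin ligands rose in WT_TAM and 1 fell. Beside Pdcd1lg2, Cd276 averaged 24.9 CPM in WT_TAM and 2.43 CPM in WT_SP (log2 fold change 3.09, adjusted p = 9.82e-05 in limma). Of 6 TNF superfamily genes 4 rose and 0 fell, led by Tnfsf9, the ligand of 4-1BB, at 60.0 CPM in WT_TAM and 1.61 CPM in WT_SP (adjusted p = 1.21e-06 in limma), and Tnfsf13b, which encodes the B cell survival factor BAFF, at 24.7 CPM in WT_TAM and 1.88 CPM in WT_SP (adjusted p = 1.17e-05 in limma). The 4-1BB receptor gene itself, Tnfrsf9, averaged 464 CPM in WT_TAM and 18.0 CPM in WT_SP (adjusted p = 5.79e-06 in limma). It was the 1 gene that rose among 15 receptors of T and NK cells, of which 9 fell. Btla, the most changed of those that fell, averaged 2.55 CPM in WT_TAM and 184 CPM in WT_SP (adjusted p = 5.59e-06 in limma) and is a known gene of B and T cells, whose markers were higher in WT_SP.

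Of the activating counterparts of the paired receptors, 13 of 17 rose in WT_TAM and 0 fell, against 23.1% and 23.6% of all genes, and without WT_TAM replicate 4 there were 13 called higher and 1 lower. Trem2, a lipid-sensing receptor of tissue macrophages, averaged 347 ± 200 CPM in WT_TAM (SD, n = 4) and 1.02 ± 0.611 CPM in WT_SP (SD, n = 3), at a log2 fold change of 7.77 (adjusted p = 1.88e-06 in limma). Trem1, which amplifies inflammatory responses, averaged 488 CPM in WT_TAM and 7.37 CPM in WT_SP (adjusted p = 8e-07 in limma). Of 17 other inhibitory receptors, 10 rose and 5 fell. Those with the widest fall were Cd22 (11.2 CPM in WT_TAM, 569 CPM in WT_SP, adjusted p = 3.5e-07 in limma) and Cd5 (4.79 CPM in WT_TAM, 81.2 CPM in WT_SP, adjusted p = 1.48e-05 in limma), which are known as genes of B cells and of T cells. ITIM signalling had 3 genes called each way among 12, with Src (log2 fold change 3.10, adjusted p = 0.000532 in limma) and Dok2 (2.93, adjusted p = 2.83e-06 in limma) the most changed.

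In the CD40 and NF-kappaB list, 2 of 18 rose and 8 fell. Nfkbia, the inhibitor that NF-kappaB itself induces, averaged 1164 CPM in WT_TAM and 351 CPM in WT_SP (adjusted p = 9.91e-05 in limma), and Traf5, an adaptor of CD40, 21.3 CPM in WT_TAM and 69.2 CPM in WT_SP (adjusted p = 0.000729 in limma). Regulators of PD-L1 split into 5 that rose and 4 that fell of 17. The cytokine-signalling inhibitors Socs3 (log2 fold change 3.64, adjusted p = 1.79e-05 in limma) and Socs1 (1.80, adjusted p = 0.000422 in limma) were the most changed of these. Adhesion and nectin ligands had 5 rises and 4 falls among 14, with Lgals3, which encodes galectin-3, at 5609 CPM in WT_TAM and 219 CPM in WT_SP (adjusted p = 9.4e-07 in limma) and Cd200 at 4.13 CPM in WT_TAM and 64.1 CPM in WT_SP (adjusted p = 0.000783 in limma). Cd200 was at a log2 fold change of -4.17, which became -3.56 without WT_TAM replicate 4. Leaving out that library changed the counts called higher and lower to 3 and 1 of 5 TNF superfamily genes, 10 and 6 inhibitory receptors, 5 and 3 ITIM signalling genes, 3 and 10 NF-kappaB genes, 9 and 5 regulators of PD-L1, 6 and 5 adhesion and nectin ligands, and 2 and 9 receptors of T and NK cells, where 32.2% of all genes were called higher and 33.5% lower.

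Over the 8 tumor libraries, several of the 10 genes varied together. On the log2(CPM + 0.5) scale, Lilrb4a correlated with Cd86 (Pearson r = 0.977), Cd80 (0.974) and Cd274 (0.970), and the lowest correlation was that of Cd274 with Pilra (-0.735). These values describe 8 libraries of both genotypes, share their library scaling, and include the low WT_TAM replicate 4. Among 12857 genes compared, the one most like each was Foxn2 for Cd80 (r = 0.998), Map2k4 for Cd86 (0.992), Kif13b for Cd274 (0.997), Casp1 for Cd40 (0.944) and Cap1 for Icosl (0.912). Likewise it was Piwil2 for Havcr2 (0.994), Hspa12a for Lgals9 (0.922), Cab39l for Sirpa (0.995), Susd2 for Pilra (0.965) and Slu7 for Lilrb4a (0.994).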

How the data were processed

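Total RNA of the 11 sorted samples was sequenced by the authors, and the submitters' processing notes name mm10, TopHat2, HISAT2, HISAT, SAMtools, HTSeq and DESeq2, without roles or versions. The 2 deposited tables hold neither counts nor a standard unit: each value is a score, with decimals and negative values. From the values, it is the read number divided by the gene's length (by a negative constant for 13573 genes without one) and by library total and factor, then multiplied by library factors recycled down the rows. Inverting this gave whole reads (within 0.0002 reads) for 99.95% to 99.99% of each library. In 35 genes of the genotype table, 98 values were not whole; they were restored from the other table or by the 1 of 54 round amounts that gave whole reads, except for 1 gene, which was left out. None of the 10 genes was among them. Of columns from other samples there were 0.

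CPM were reads over library total times the authors' factor. A gene was kept if as many libraries as the smaller group holds reached the CPM that 10 reads give in a library of median size, and if it had 15 reads in all. Each comparison used limma 3.58.1 (R 4.3.3; trend and robust) on log2(CPM + 0.5), within its table, two-sided, with Benjamini-Hochberg adjustment over all genes tested and a threshold of 0.05. Fold changes on this log2 scale, computed here from the deposited scores, understate those of low genes. Correlations, per-length levels (CPM per kb, lengths recovered with the reads), promoter matches and marker sums were computed in Python 3.11.15 with pandas 2.3.3 and carry no test. The scripts were tested on simulated data. Replicates differed by far more than sampling noise (chi-square per degree of freedom 11.1 to 233), so none was merged.

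The 10 genes, the lists and the marker genes were chosen with earlier results of these data known. The text names all 10 genes, the targeted gene, the 2 tested genes of each list with the largest absolute log2 fold change in each comparison, and the gene most correlated with each of the 10. Of these, 1 gene is not reported here. Alternatives left out single libraries or changed the pseudocount, the filter, the scaling, the model, the library weights, the replicate block or the restored values.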

Additional observations from a re-analysis of the deposited data

Results flagged for a closer look

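A gap to the nearest library that is large for the group's range marked 4 values among the 30 groups of 4 libraries examined, where chance marks about 1 in 20. Cd80 in KO_TAM replicate 2, at 97.6 CPM, stood above 3 KO_TAM libraries of 43.3 to 45.5 CPM. Icosl in WT_TAM replicate 3 stood above its group in both tables, at 28.9 CPM on the genotype scale and 32.8 CPM on the tissue scale, which are the same reads. Lilrb4a in WT_TAM replicate 4, at 816 CPM on the tissue scale, stood below 3 WT_TAM libraries of 1811 to 1994 CPM. In WT_TAM replicate 4 the levels relative to the median of the other WT_TAM libraries were 0.160 for Cd274, 0.206 for Havcr2, 0.303 for Cd80, 0.479 for Lilrb4a, 0.534 for Cd86 and 0.568 for Sirpa on the genotype scale.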

How the results depend on the processing

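Between KO_TAM and WT_TAM, 0 genes were called with all libraries, with any single library left out, with either other pseudocount or scaling, with voom and with the replicate block. There were 98 genes without the filter on low reads (20 higher and 78 lower) and 387 with a weight per library (140 higher and 247 lower). Without both WT_TAM replicate 4 and KO_TAM replicate 2 there were 65, so that fits that left out libraries, singly or as this pair, ranged from 0 to 65. With the altered values as deposited there were 4. None of the 10 genes was called under any of these settings, and 2 to 4 of them lay apart. With all libraries 15.1% of all genes tested lay apart in either direction. Under upper-quartile scaling, with 2 of the 10 apart, 952 of 12909 genes tested lay above in KO_TAM and 924 below. Without KO_TAM replicate 4, with 4 of the 10 apart, 1303 of 13262 lay above and 1576 below. The log2 fold change of Havcr2 was -0.10 to 0.72 with single libraries left out, its sign turning without WT_TAM replicate 4, and that of Cd40 was -0.045 to 0.17, its sign turning without WT_TAM replicate 2 and without KO_TAM replicate 3. The cause was not tested. Across all settings the adjusted p was 0.0595 to 0.385 for Cd80, 0.0522 to 0.396 for Lilrb4a and 0.141 to 0.607 for Cd274.

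Between WT_TAM and WT_SP, 6651 of 14239 genes tested (46.7%) were called (3287 higher and 3364 lower), and 8 of the 10 genes. With single libraries left out, the calls ranged from 4977 of 14652 genes tested (without WT_SP replicate 3) to 9133 of 13895 (without WT_TAM replicate 4). The range for the 10 genes was 6 to 9, with 6 and 9 in these same fits. Scaling by the library total alone moved the median of all genes to a log2 fold change of -0.52 from -0.07 and gave 2135 genes higher and 5629 lower. Lgals9 was then at -0.30 and Sirpa was no longer called. Their distances from the median of all genes were 0.23 and 1.20, against 0.24 and 1.22 in the main scaling. Scaling shifts all genes nearly alike, so these distances could hardly change and are no check on either result. Of the 10 genes, 6 lay apart under this scaling, where 2281 of the 14301 genes tested lay above in WT_TAM and 6558 below. Cd86 was called also under upper-quartile scaling (0.75) and a weight per library (0.82), and Cd40 lost its call without the filter and under upper-quartile scaling (adjusted p = 0.134 and 0.0946 in limma). Of the alternative values for the 10 genes here, 135 kept direction and call, 10 lost the call, 4 gained it and 1 changed sign; between genotypes 177 kept both and 3 changed sign.

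Deviations from the group means correlated at -0.162 to 0.198 between genotypes for equal replicate numbers, against -0.318 to 0.295 for unlike numbers. Between tissues the ranges were -0.094 to 0.098 and -0.100 to 0.158. With so few libraries, these values cannot tell whether libraries of equal number were paired. With the replicate block 0 genes were called between genotypes. Between tissues, where WT_TAM replicate 4 has no partner and so drops out, 9117 of 14239 genes tested and 9 of the 10 genes were called. Depth limited none of the 10 genes, the lowest having 2.70 CPM in 1 WT_SP library.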
